A study of Mus musculus with 2 samples.

Results

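The 33 genes described here, of 32285 in the deposited count table, encode the regulatory and structural proteins of the thin filament, the myosin light chains and their kinases, and a pair of slow myosin heavy chains. They were taken from a list by name and all 33 were found. The troponins were Tnnt1, Tnnt2, Tnnt3, Tnni1, Tnni2, Tnni3, Tnnc1 and Tnnc2, and the tropomyosins Tpm1, Tpm2, Tpm3 and Tpm4. The light chains were Myl1, Myl2, Myl3, Myl4, Myl6, Myl6b and Mylpf, with the kinase genes Mylk2 and Mylk4. The actins were Acta1 and Actc1, the filament-end proteins Lmod1, Lmod2, Lmod3, Tmod1 and Tmod4, the nebulin family Neb, Nebl and Nrap, and the heavy chains Myh7 and Myh7b. Their transcripts were counted in nuclei of the gastrocnemius and plantaris, neighbouring calf muscles, from C57BL/6 wild-type mice aged 12 weeks with no other allele or agent. Each muscle was 1 library of nuclei stained with propidium iodide and sorted, so there are no replicates and no test between conditions exists. The labels do not say how many mice were pooled, their sex, or whether both muscles came from the same animals. Muscle, animal and library cannot be told apart.

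Nuclei of muscle fibres were grouped by the most abundant of the 4 adult myosin heavy chain transcripts, given at least 3 unique molecular identifiers (UMIs, one per captured transcript molecule) of these 4 genes. Myh7 marks slow type I fibres, Myh2 type IIa, Myh1 type IIx and Myh4 the fastest type, IIb. In the gastrocnemius 4550 nuclei were Myh4 nuclei, 132 Myh1, 174 Myh2 and 22 Myh7. In the plantaris the numbers were 4181, 763, 568 and 6. Levels below are UMIs per 1000000 UMIs of the group (CPM), and ranges in brackets are exact 95% intervals that cover counting error only, not differences between animals. A difference is called past 2-fold when the log2 ratio is 1 or more in size and the gene is compared, which needs 20 UMIs over both groups and 5 expected in the smaller one. Myh7 helped set the groups, so its own level is only described, and counts are over the other 32 genes.

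In striated muscle, calcium binds troponin C, which through the inhibitory subunit troponin I and the tropomyosin-binding subunit troponin T moves tropomyosin along actin and lets myosin attach. Each of these parts exists as fast and slow isoforms from separate genes, and fibres are known to pair slow thin-filament isoforms with slow myosin. Essential and regulatory light chains wrap the neck of the myosin head, and leiomodins and tropomodulins act at the pointed ends of the actin filaments.

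Libraries held 7374 and 9156 nuclei in the gastrocnemius and plantaris, with median depths of 2260 and 2714 UMIs, and 17 barcodes occurred in both. Clusters with the markers of muscle fibres held 5082 and 5799 nuclei, 1789 and 2950 nuclei lay in clusters with markers of other cell types, and no cluster passed the marker rule for adipocytes or Schwann cells. Neb, Acta1, Mylk4 and Lmod1 are themselves among those markers, and all variable genes entered the clustering, so levels by cluster are descriptions. On the same strand, Tnni3 overlaps Dnaaf3, Neb overlaps Gm13521, Myh7 overlaps Mir208b and Myh7b overlaps Mir499, and reads of such pairs may not be told apart. Transcripts of Myh4, which only fibres are known to make, stood at 1459 and 1173 CPM in the other cell types. Levels in these nuclei are therefore used below as the level of free fibre RNA. Droplets that held a fibre nucleus as well were not told apart from free RNA. Median depths of the other cell types were 1222 and 1477 UMIs, against 2331.5 to 3422 in the Myh groups. The Myh2 nuclei of both libraries lay almost all in 1 shared cluster, with 167 of 174 and 539 of 568 there. Myh4 nuclei of the 2 muscles mostly fell in different clusters: the largest gastrocnemius one held 1918 of them and 68 from the plantaris, and the largest plantaris one 1684 and 91 from the gastrocnemius.

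Promoters of 28 members, with 37 start sites, were found in the RefSeq table for the GRCm38.p6 assembly, the same coordinates as mm10. Shown are 5 whose genes set the groups apart below: the slow isoform genes Tnnt1 and Tnnc1, which were highest in Myh7 nuclei, and Myl3, which was so in the gastrocnemius, the kinase gene Mylk4, which was highest in Myh4 nuclei, and Lmod2, which was high in Myh1 and Myh2 nuclei. Each runs 5′ to 3′ on the gene's strand from 250 bases before the RefSeq start. It ends before any GENCODE exon base of that strand in the window, and exons of the other strand were not looked for. Windows of Tnnt1 and Myl3 lie in introns of longer GENCODE models of these genes. Nisch, on the other strand, overlaps the Tnnc1 gene. Capitals mark matches on either strand to the E-box (CANNTG, bound by myogenic helix-loop-helix factors), MCAT (CATTCC, bound by TEAD factors), the MEF2 consensus and the serum response factor CArG box, and no match overlapped another.
Tnnt1, chr7:4516005-4516225, minus strand: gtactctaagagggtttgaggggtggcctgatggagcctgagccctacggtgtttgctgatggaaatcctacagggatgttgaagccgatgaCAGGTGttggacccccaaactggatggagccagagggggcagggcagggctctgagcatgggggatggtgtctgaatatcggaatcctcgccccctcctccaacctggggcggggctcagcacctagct
Tnnc1, chr14:31208062-31208311, plus strand: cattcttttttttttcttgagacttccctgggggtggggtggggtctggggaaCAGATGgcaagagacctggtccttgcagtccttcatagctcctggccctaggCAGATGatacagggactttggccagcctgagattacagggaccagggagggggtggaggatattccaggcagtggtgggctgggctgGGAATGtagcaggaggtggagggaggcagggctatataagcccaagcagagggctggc
Myl3, chr9:110763428-110763645, plus strand: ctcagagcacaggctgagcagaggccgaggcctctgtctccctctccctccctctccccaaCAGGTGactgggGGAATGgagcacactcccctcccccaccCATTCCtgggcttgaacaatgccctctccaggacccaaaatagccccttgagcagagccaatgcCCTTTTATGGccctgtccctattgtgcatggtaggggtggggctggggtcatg
Mylk4, chr13:32783965-32784214, minus strand: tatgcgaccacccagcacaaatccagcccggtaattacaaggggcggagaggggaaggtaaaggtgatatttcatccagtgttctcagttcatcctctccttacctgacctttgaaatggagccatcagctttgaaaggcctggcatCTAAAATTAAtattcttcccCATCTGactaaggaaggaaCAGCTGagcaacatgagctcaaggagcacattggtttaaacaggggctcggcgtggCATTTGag
Lmod2, chr6:24597521-24597761, plus strand: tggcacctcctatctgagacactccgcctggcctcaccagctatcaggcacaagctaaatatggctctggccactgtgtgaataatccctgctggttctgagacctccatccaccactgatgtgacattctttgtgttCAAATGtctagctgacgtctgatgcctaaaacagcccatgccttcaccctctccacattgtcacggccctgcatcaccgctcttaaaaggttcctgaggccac

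Over the full 250 bases, an E-box was found in 30 of the members' 37 windows (81.1%) and in 66.2% of 32851 promoters. MCAT was found in 10 (27.0%, against 12.6%), the CArG box in 5 (13.5%, against 1.47%) and the MEF2 consensus in 1, that of Mylk4 (2.70%, against 2.92%). These matches describe the letters in the windows and were not tested as binding sites.

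The level of each gene in each group is plotted in the heat map of 33 genes by Myh group and library. In it Tnnt1, Tnnc1, Tpm3 and Myl2 are high in both Myh7 columns, and Tnni1 and Myl3 in that of the gastrocnemius. Lmod2, Lmod3, Tpm1, Mylk4 and Mylk2 passed 2-fold in both muscles for Myh1 and for Myh2 against Myh4 nuclei.

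**Figure D1:**
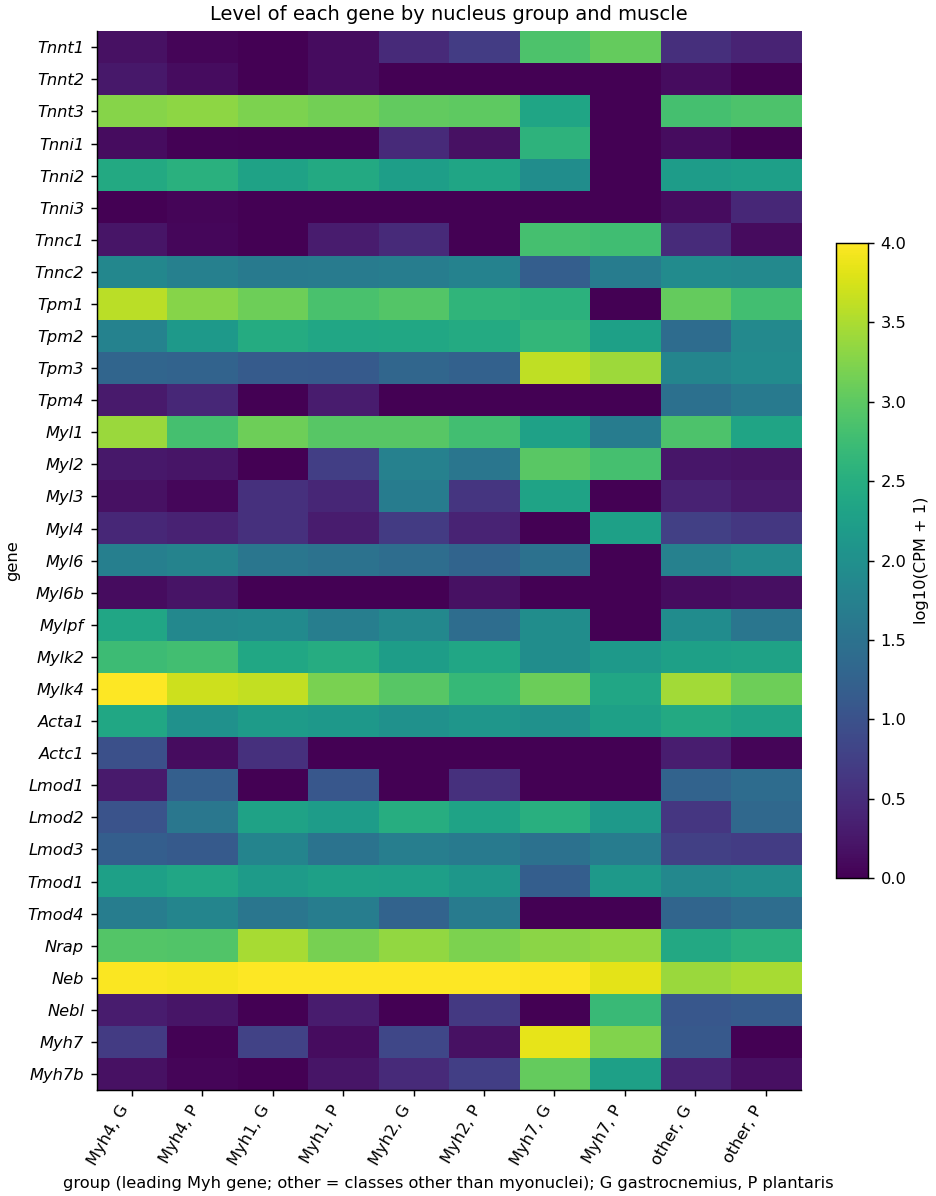
Heat map of log10(CPM + 1) for the 33 genes (vertical, by role) in Myh4, Myh1, Myh2 and Myh7 nuclei and in the other cell types, with a gastrocnemius (G) and a plantaris (P) column each. Tnnt1, Tnnc1, Tpm3 and Myl2 are high in the Myh7 columns, and Lmod2 is at 9.64 CPM in Myh4 and 315 CPM in Myh2 nuclei of the gastrocnemius.

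Among the Myh groups, slow troponin transcripts were abundant in Myh7 nuclei and near the limit of detection in Myh2, Myh1 and Myh4 nuclei, which carried the fast set. Tnnt1, the slow skeletal troponin T gene (chr7:4504570-4516382, minus strand), stood at 761 CPM (567–1001) in the 22 gastrocnemius Myh7 nuclei. It was at 0.496 CPM in Myh4 nuclei, 2.01 in Myh2 nuclei from 1 UMI, and 0 in Myh1 nuclei, where 0 UMIs allow up to 7.74 CPM. In the plantaris it reached 1113 CPM (713–1656) in the 6 Myh7 nuclei, against 0.126, 4.09 and 0.345 CPM in Myh4, Myh2 and Myh1 nuclei. Of the 24 Tnnt1 UMIs in these 6 nuclei, 11 came from 1 nucleus, which lay in the cluster of the myotendinous junction, the fibre ends at the tendon. All Myh2, Myh1 and Myh4 values except that of plantaris Myh2 nuclei lay below the 2.52 and 1.51 CPM of the other cell types in the same library.

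Tnni1, slow troponin I, and Tnnc1, troponin C of slow and cardiac muscle, followed the same order in the gastrocnemius. Tnni1 stood at 388 CPM (253–568) in Myh7 nuclei there, and at 2.01 CPM or less in every other group of both libraries. The 6 plantaris Myh7 nuclei held 0 Tnni1 UMIs, which allows up to 139 CPM. Tnnc1 (chr14:31208312-31211729, plus strand) stood at 657 CPM (477–881) and 603 CPM (321–1031) in Myh7 nuclei of the gastrocnemius and plantaris. Of the 13 Tnnc1 UMIs in plantaris Myh7 nuclei, 8 came from 1 nucleus. Elsewhere Tnnc1 did not pass 2.16 CPM.

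Fast troponin T and I were highest in Myh4 nuclei and lower, by less than the slow genes differed, in Myh1 and Myh2 nuclei. Tnnt3, fast troponin T (chr7:142498836-142516009, plus strand), ran at 1866, 1620, 1079 and 224 CPM in gastrocnemius Myh4, Myh1, Myh2 and Myh7 nuclei. In the plantaris the order was the same, at 2108, 1429, 1035 and 0 CPM. The Myh2 over Myh4 log2 ratio of Tnnt3 was -0.79 (-0.92 to -0.67) in the gastrocnemius and -1.03 (-1.09 to -0.96) in the plantaris. The plantaris value falls just short of 2-fold with all nuclei kept whatever their cluster (-0.98) and with median-ratio scaling (-0.93). With free RNA subtracted the gastrocnemius value passes 2-fold (-1.09).

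Tnni2, fast troponin I, lies 54425 bp from Tnnt3. It was at 265, 201 and 171 CPM in gastrocnemius Myh4, Myh1 and Myh2 nuclei and at 339, 267 and 225 CPM in the plantaris, with other cell types at 159 and 179 CPM. The Tnni2 log2 ratio of Myh2 over Myh4 nuclei was -0.64 in the gastrocnemius and -0.59 in the plantaris. With free RNA subtracted it passes 2-fold in both, at -1.14 and -1.09. Tnnc2, fast troponin C, ran from 41.3 to 69.6 CPM over these groups of both libraries, below the 85.2 and 74.6 CPM of the other cell types. Per nucleus, Myh4 nuclei held 0.216 and 0.205 Tnnc2 UMIs and the other cell types 0.132 and 0.167, so whether fibre nuclei lie above free RNA depends on the measure. The Myh2 over Myh4 log2 intervals, -1.18 to 0.05 and -0.16 to 0.41, include 0.

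The cardiac troponin genes were at the limit of detection, with 1 exception. Tnnt2, cardiac and embryonic troponin T, had 11 UMIs in gastrocnemius and 8 in plantaris muscle-fibre nuclei. All of them lay in the neuromuscular junction cluster, the nuclei beneath the motor nerve ending: 9 of 67 nuclei in the gastrocnemius (64.4 CPM, 32.1–115) and 6 of 80 in the plantaris (25.2 CPM, 10.9–49.7). The 4915 and 5554 fibre nuclei outside both junction clusters held 0. Tnni3, cardiac troponin I, had 0 and 2 UMIs in muscle-fibre nuclei, and 1 and 12 in other cell types.

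Counted as pairs, the slow share of slow plus fast UMIs is free of the total per nucleus, though not of gene length, so it is compared between groups and not read as a ratio of molecules. For Tnnt1 of Tnnt1 and Tnnt3 it was 77.3% (65.3–86.7) in gastrocnemius Myh7 nuclei and 0.186% in Myh2 nuclei. All 24 such UMIs in the plantaris Myh7 nuclei were Tnnt1, and 0.393% (0.170–0.774) were in its Myh2 nuclei. Tnni1 made up 81.2% (63.6–92.8) of its pair in gastrocnemius Myh7 nuclei, and neither partner was seen in the 6 plantaris ones. The share of Tnnc1 was 97.8% (88.2–99.9) and 92.9% (66.1–99.8) in Myh7 nuclei of the gastrocnemius and plantaris, and 4% or less in every other Myh group. The shares are drawn in the panels of slow share by pair.

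**Figure D2:**
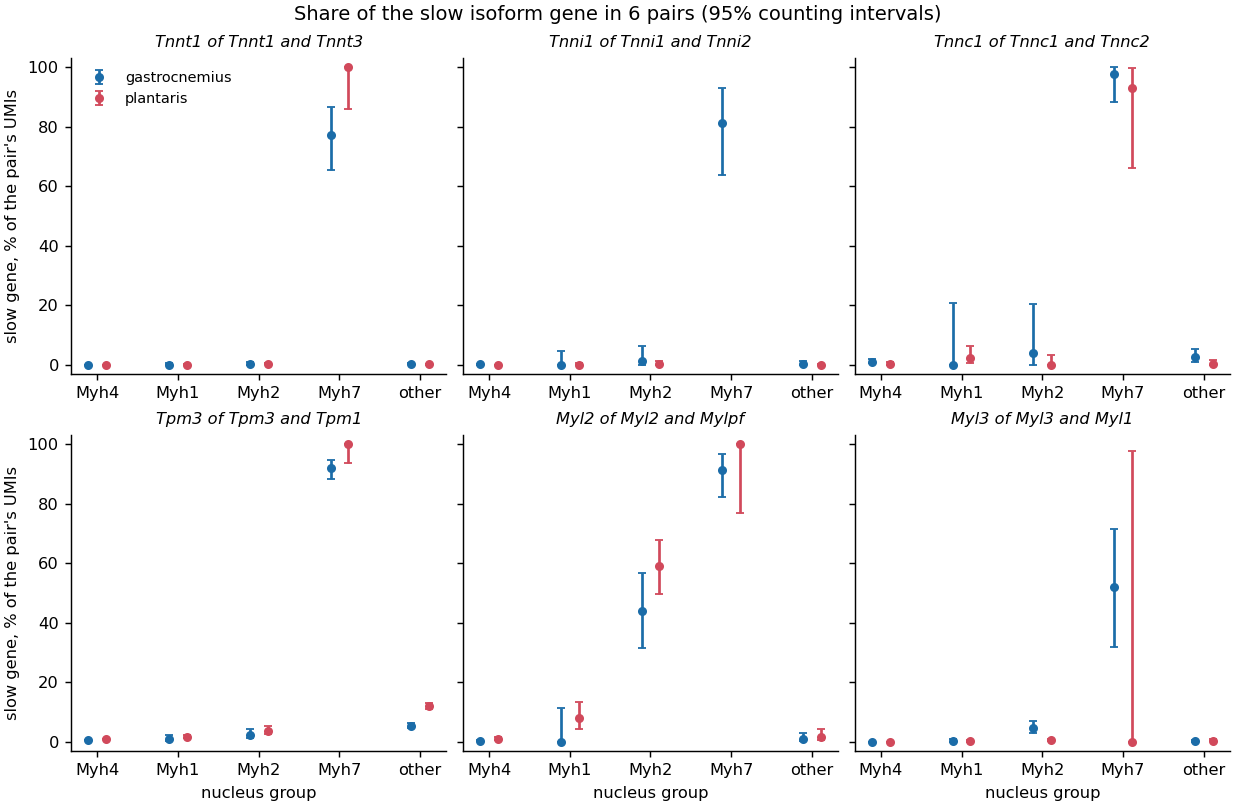
Slow isoform UMIs as a percentage of slow plus fast UMIs (vertical) for 6 pairs, by Myh group and library, with exact 95% intervals. Myh7 nuclei sit at 51.9% or more except plantaris Myl3, with 0 of 1 UMI, and the plantaris Tnni pair, with none. The Myl2 panel is the one in which Myh2 nuclei leave the bottom, at 43.8% and 59.0%.

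Among the tropomyosins, Tpm1 was lower and Tpm2 higher in Myh1 and Myh2 than in Myh4 nuclei, and Tpm3 was a transcript of Myh7 nuclei. Tpm3, slow tropomyosin (chr3:90072649-90100902, plus strand), reached 4208 CPM (3731–4729) in gastrocnemius and 2550 CPM (1921–3319) in plantaris Myh7 nuclei. Of the 55 Tpm3 UMIs in plantaris Myh7 nuclei, 23 came from 1 nucleus, which lay in the myotendinous junction cluster. In Myh4, Myh1 and Myh2 nuclei Tpm3 ran from 12.4 to 20.1 CPM, under the 65.1 and 83.5 CPM of the other cell types, which also use non-muscle products of this gene. The Tpm3 share of Tpm3 and Tpm1 was 91.9% (88.2–94.7) in gastrocnemius Myh7 nuclei and 55 of 55 UMIs in the plantaris. It was 2.30% and 3.76% in Myh2 nuclei, below the 5.37% and 12.0% of the other cell types.

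Tpm1, fast α-tropomyosin (chr9:67022590-67049406, minus strand), ran at 3788, 1326, 853 and 373 CPM in gastrocnemius Myh4, Myh1, Myh2 and Myh7 nuclei. In the plantaris it ran at 1843, 711, 418 and 0 CPM. Of the 25 Tpm1 UMIs in gastrocnemius Myh7 nuclei, 10 came from 1 nucleus. The Tpm1 log2 ratio of Myh2 over Myh4 nuclei was -2.15 (-2.29 to -2.01) and -2.14 (-2.24 to -2.04), almost the same in both muscles although the levels were not. Other cell types held 1147 and 612 CPM, more than the Myh2 nuclei by CPM. Per nucleus the order turns, as Myh2 nuclei held 2.44 and 1.44 Tpm1 UMIs and the other cell types 1.78 and 1.37. The other cell types include mural nuclei of vessels, and Tpm1 transcripts of their own were not told apart from free RNA.

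Tpm2, β-tropomyosin (chr4:43514711-43523765, minus strand), ran the other way. In the gastrocnemius it was at 59.0, 284, 237 and 448 CPM in Myh4, Myh1, Myh2 and Myh7 nuclei, and in the plantaris at 144, 233, 275 and 185 CPM, with other cell types at 25.2 and 76.0 CPM. Of the 30 Tpm2 UMIs in gastrocnemius Myh7 nuclei, 11 came from 1 nucleus, and the plantaris Myh7 level rests on 4 UMIs. For Tpm2 the log2 ratio of Myh2 over Myh4 nuclei was 2.0 (1.71–2.28) in the gastrocnemius and 0.93 (0.79–1.07) in the plantaris, where it passes 1 with free RNA subtracted (1.18) or median-ratio scaling (1.02). The Tpm2 share of Tpm2 and Tpm1 was 1.53% in gastrocnemius Myh4, 17.6% in Myh1 and 21.7% in Myh2 nuclei. Plantaris shares were 7.26%, 24.6% and 39.7%, with other cell types at 2.15% and 11.0%. The log2 odds of Myh2 against Myh4 nuclei were 4.16 (3.83–4.47) and 3.07 (2.90–3.24).

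Tpm4, a non-muscle tropomyosin, held 1.83 CPM or less in every Myh group and 29.5 and 43.9 CPM in the other cell types. There it was highest in vascular endothelium-like nuclei, at 64.5 CPM (17.6–165) and 91.4 CPM (49.9–153).

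The regulatory light chain pair was the 1 pair of 6 in which Myh2 nuclei held a large slow share. Myl2, the slow and cardiac regulatory light chain (chr5:122100951-122113472, plus strand), stood at 955 CPM (735–1219) in gastrocnemius Myh7 nuclei, 56.2 in Myh2 nuclei, 0.780 in Myh4 nuclei and 0 in Myh1 nuclei. Plantaris levels were 649 CPM (355–1089), 36.8, 0.695 and 4.48 CPM in the same order. Other cell types held 0.719 and 0.605 CPM, so the Myh2 level lies far above free RNA. Over Myh4 nuclei, the log2 ratio was 5.73 (4.80–6.79) in the plantaris. In the gastrocnemius it was 6.17 (5.12–7.33) from 28 and 11 UMIs, too few for the gene to be among those compared.

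These Myl2 transcripts came from few Myh2 nuclei. A Myl2 UMI was seen in 13 of 174 gastrocnemius Myh2 nuclei (7.47%) and 33 of 568 in the plantaris (5.81%), against 0.112% and 0.136% of the shallower nuclei of other cell types. After thinning each nucleus to 1000 UMIs the shares were 6.33% and 2.03%. At most 5 and 7 UMIs came from a single nucleus, and none of the Myl2-positive Myh2 nuclei held a Myh7 UMI.

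As a share of Myl2 and Mylpf, Myl2 made up 43.8% (31.4–56.7) of 64 UMIs in gastrocnemius Myh2 nuclei and 59.0% (49.7–67.8) of 122 in the plantaris. It was 0.340% and 0.960% in Myh4 nuclei, 8.07% (4.37–13.4) in plantaris Myh1 nuclei and 0 of 31 UMIs in gastrocnemius Myh1 nuclei. In Myh7 nuclei it was 91.4% (82.3–96.8) and 14 of 14 UMIs. The log2 odds of Myh2 against Myh4 nuclei, which do not depend on gene length, were 7.83 (6.64–9.08) and 7.22 (6.17–8.35). The Myh2 shares move with the processing: they are 25.1% and 38.3% per kb of gene length, 50% and 45.2% after thinning, and 70.0% and 94.7% with free RNA subtracted.

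Mylpf, the fast regulatory light chain (chr7:127208890-127214298, plus strand), was at 229, 80 and 72.2 CPM in gastrocnemius Myh4, Myh1 and Myh2 nuclei and at 71.8, 51.1 and 25.5 CPM in the plantaris. Other cell types held 87.3 and 35.9 CPM, above the Myh2 level in both libraries. The log2 ratio of Myh2 over Myh4 nuclei was -1.66 (-2.18 to -1.19) and -1.49 (-1.93 to -1.08). Per nucleus, Myh2 nuclei held 0.207 and 0.0880 Mylpf UMIs and the shallower other cell types 0.136 and 0.0803, so whether Myh2 nuclei lie above free RNA depends on the measure.

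Of the essential light chains, Myl3, the slow and ventricular gene, was seen in Myh2 nuclei of the gastrocnemius more than of the plantaris. It stood at 209 CPM (114–351) in gastrocnemius Myh7 nuclei and at 46.1 CPM in Myh2 nuclei, against 0.496 CPM in Myh4 nuclei. In the plantaris it was 0 in the 6 Myh7 nuclei, 3.07 CPM in Myh2 and 0.190 CPM in Myh4 nuclei. The 23 gastrocnemius Myh2 UMIs were spread over 18 of 174 nuclei, and the 6 in the plantaris over 6 of 568. The plantaris over gastrocnemius log2 ratio in Myh2 nuclei was -3.91 (-5.50 to -2.57). Of Myl3 and Myl1, Myl3 made up 51.9% (31.9–71.3) in gastrocnemius Myh7 nuclei, 4.73% (3.02–7.02) in gastrocnemius Myh2 nuclei and 0.50% (0.184–1.08) in plantaris Myh2 nuclei.

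Myl1, the fast essential light chain (chr1:66924295-66945404, minus strand), differed from Myh4 nuclei in opposite directions in the Myh1 nuclei of the 2 libraries. It ran at 2533, 1318 and 929 CPM in gastrocnemius Myh4, Myh1 and Myh2 nuclei and at 667, 902 and 611 CPM in the plantaris, with other cell types at 759 and 213 CPM. Its Myh1 over Myh4 log2 ratio was -0.94 (-1.07 to -0.82) in the gastrocnemius and 0.44 (0.37–0.50) in the plantaris. The ratio of Myh2 over Myh4 nuclei was -1.45 (-1.58 to -1.32) and -0.13 (-0.21 to -0.04).

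Myl6, the non-muscle essential light chain, ran from 18.4 to 59.6 CPM in Myh4, Myh1 and Myh2 nuclei, close to or below the 56.8 and 82.8 CPM of the other cell types, where it is widely used. The embryonic and atrial chain Myl4 had 30 and 39 UMIs in all muscle-fibre nuclei, and 13 and 23 in other cell types. Of the 39 in the plantaris, 4 came from 1 of the 6 Myh7 nuclei, which lay in the myotendinous junction cluster. Myl6b, which neighbours Myl6 at a gap of 11 bp, had 5 and 11 UMIs in muscle-fibre nuclei.

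Both light chain kinase genes were highest in Myh4 nuclei. Mylk4 (chr13:32700834-32783954, minus strand) ran at 10728, 4345, 925 and 1283 CPM in gastrocnemius Myh4, Myh1, Myh2 and Myh7 nuclei and at 4927, 1558, 485 and 232 CPM in the plantaris. Its log2 ratio over Myh4 in Myh2 nuclei was -3.54 (-3.67 to -3.40) and -3.34 (-3.44 to -3.25), the lowest of any compared member in each library. Other cell types held 2809 and 1309 CPM, above the Myh2 level, and per nucleus 4.37 and 2.93 UMIs against 2.65 and 1.67 in Myh2 nuclei. Mylk4 in Myh2 nuclei is thus not above free RNA, and a lower level of their own could not be measured. The gastrocnemius Myh7 level, also below the other cell types in CPM, rests on 86 UMIs, of which 46 came from 1 nucleus.

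Mylk2, the skeletal muscle kinase that phosphorylates the regulatory light chain (chr2:152911352-152923068, plus strand), showed the same order with smaller steps. It was at 543, 243 and 167 CPM in gastrocnemius Myh4, Myh1 and Myh2 nuclei and at 620, 297 and 234 CPM in the plantaris, with other cell types at 187 and 202 CPM. Its Myh2 over Myh4 log2 ratio was -1.71 (-2.04 to -1.39) and -1.41 (-1.54 to -1.27). The Mylk4 share of both kinases was 95.2% in gastrocnemius Myh4 and 84.7% in Myh2 nuclei, and 88.8% and 67.5% in the plantaris.

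Acta1, skeletal α-actin, was lower in Myh2 than Myh4 nuclei in the gastrocnemius and slightly higher in the plantaris. It stood at 240, 157 and 104 CPM in gastrocnemius Myh4, Myh1 and Myh2 nuclei and at 105, 134 and 127 CPM in the plantaris. Other cell types held 268 and 210 CPM, more than any of these groups. Per nucleus the order turns in part: gastrocnemius Myh4 nuclei held 0.743 Acta1 UMIs and the other cell types 0.417, against 0.396 and 0.471 in the plantaris. Between Myh2 and Myh4 nuclei the log2 ratio was -1.20 (-1.62 to -0.81) in the gastrocnemius and 0.28 (0.08–0.47) in the plantaris. The former falls short of 2-fold, at -0.95, when at least 80% of the Myh UMIs come from 1 gene.

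Actc1, cardiac α-actin, had 118 UMIs in 89 gastrocnemius Myh4 nuclei (8.36 CPM) and 6 in 6 plantaris ones (0.379 CPM). Myh2 nuclei held 0 in both libraries, which allows up to 6.02 and 1.53 CPM. No more than 3 of the gastrocnemius UMIs came from 1 nucleus.

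Leiomodin 2 had the largest Myh2 over Myh4 ratio of the compared members in the gastrocnemius, and the largest after Myl2 in the plantaris. Lmod2, which elongates thin filaments at their pointed ends (chr6:24597762-24605414, plus strand), ran at 9.64, 199, 315 and 328 CPM in gastrocnemius Myh4, Myh1, Myh2 and Myh7 nuclei. Plantaris Lmod2 was at 38.1, 159, 207 and 139 CPM, and other cell types held 3.23 and 21.5 CPM. Levels of Myh1 and Myh2 nuclei lay above those of Myh4 nuclei in both libraries. The plantaris Myh7 level rests on 3 UMIs, and its log2 ratio over Myh4 nuclei, 1.87 (-0.41 to 3.42), is not shown to differ from 0. In log2 terms Myh2 over Myh4 nuclei gave 5.03 (4.69–5.37) in the gastrocnemius and 2.44 (2.26–2.62) in the plantaris, and Myh1 over Myh4 nuclei 4.37 (3.94–4.78) and 2.06 (1.88–2.23).

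The difference also showed in how many nuclei had a Lmod2 UMI. In the gastrocnemius the shares were 2.22% of Myh4, 39.4% of Myh1 and 50% of Myh2 nuclei, with 0.503% in other cell types. In the plantaris they were 10.1%, 35.8% and 44.2%, with 3.46% in other cell types. Thinned to 1000 UMIs, they were 0.791%, 16.8% and 24.7% in the gastrocnemius and 3.48%, 14.2% and 17.7% in the plantaris.

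Lmod3, another skeletal muscle leiomodin (chr6:97238534-97252759, minus strand), differed in the same direction by less. It was at 14.5, 61.9 and 50.2 CPM in gastrocnemius Myh4, Myh1 and Myh2 nuclei and at 12.8, 32.4 and 42.4 CPM in the plantaris, above the 4.67 and 4.09 CPM of the other cell types. The Myh2 over Myh4 log2 ratio was 1.79 (1.13–2.39) and 1.73 (1.34–2.11). Its Myh1 over Myh4 ratio was 2.09 (1.42–2.71) and 1.34 (0.98–1.70), of which the second is 0.89 after thinning. The Lmod2 share of Lmod2 and Lmod3 was 39.9% in gastrocnemius and 74.9% in plantaris Myh4 nuclei, and 86.3% and 83.0% in Myh2 nuclei.

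Lmod1, the smooth muscle leiomodin, was highest in the mural nuclei of vessels, for which it is a marker, at 118 CPM (87.5–156) and 147 CPM (123–175). Plantaris Myh4 nuclei held 15.4 CPM, with 243 UMIs in 186 nuclei, and gastrocnemius Myh4 nuclei 0.921 CPM, with 13 UMIs. Per nucleus this was 0.0581 in plantaris Myh4 nuclei and 0.0566 in the plantaris nuclei of other cell types. Plantaris Myh2 nuclei, in the same library, held 2.55 CPM.

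Tropomodulins cap the pointed end of the filament. Tmod1 was at 189, 155 and 177 CPM in gastrocnemius Myh4, Myh1 and Myh2 nuclei and at 236, 188 and 128 CPM in the plantaris. Tmod4, the skeletal muscle form, was at 49.0, 36.1 and 18.1 CPM in the gastrocnemius and 64.9, 48.6 and 44.5 CPM in the plantaris. Its Myh2 over Myh4 log2 ratio was -1.44 (-2.57 to -0.51) from 9 Myh2 UMIs in the gastrocnemius and -0.55 (-0.88 to -0.23) in the plantaris. That of Tmod1 was -0.10 (-0.42 to 0.21) and -0.88 (-1.07 to -0.69). The plantaris value passes 2-fold when at least 80% of the Myh UMIs come from 1 gene (-1.06) and with free RNA subtracted (-1.39). The difference between libraries was not tested. Other cell types held 72.6 and 90.2 CPM of Tmod1 and 19.0 and 25.7 CPM of Tmod4.

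Nebulin, the ruler protein along the thin filament, stayed level while its relative Nrap did not. Neb (chr2:52136647-52378474, minus strand) ran from 8923 to 11262 CPM in Myh4, Myh1 and Myh2 nuclei of both libraries, and its Myh2 over Myh4 log2 ratio was 0.27 (0.23–0.31) and 0.25 (0.22–0.27). Nrap, a nebulin-related anchoring protein of assembling myofibrils and fibre ends (chr19:56320035-56390037, minus strand), was at 852, 2946, 2255 and 1985 CPM in gastrocnemius Myh4, Myh1, Myh2 and Myh7 nuclei. In the plantaris it was at 830, 1518, 1619 and 2272 CPM, and other cell types held 257 and 339 CPM. Of the 49 Nrap UMIs in plantaris Myh7 nuclei, 28 came from 1 nucleus. The log2 ratio of Myh2 over Myh4 nuclei was 1.40 (1.31–1.49) in the gastrocnemius and 0.96 (0.91–1.02) in the plantaris, just short of 2-fold. It passes 1 in the plantaris with all nuclei (1.01), 10 or more Myh UMIs (1.02), median-ratio scaling (1.06) and free RNA subtracted (1.15).

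Nebl, nebulette, a short cardiac and non-muscle relative, had 28 and 48 UMIs in muscle-fibre nuclei. Of these, 14 lay in 4 of 100 gastrocnemius and 43 in 14 of 165 plantaris nuclei of the myotendinous junction cluster, the fibre ends at the tendon (47.3 CPM, 25.9–79.4, and 67.5 CPM, 48.9–91.0). Among these myotendinous nuclei, a single plantaris Myh7 nucleus held 11 and a single plantaris Myh2 nucleus 7. The 510 CPM of plantaris Myh7 nuclei is thus the level of 1 nucleus of that cluster. Outside both junction clusters fibre nuclei held 0.871 and 0.197 CPM. Vascular endothelium-like nuclei and muscle stem cell-like nuclei held more, at 80.7 and 104 CPM in the former and 72.5 and 36.8 CPM in the latter.

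The slow heavy chains showed how far the Myh7 nuclei stand apart. Myh7, by which they were chosen, was at 7028 CPM (6408–7692) and 1762 CPM (1247–2418) there, and at 6.02 CPM or less in the other Myh groups. Myh7b, an ancient slow myosin gene that hosts a microRNA (chr2:155611212-155634307, plus strand), was at 1119 CPM (880–1403) in gastrocnemius Myh7 nuclei, with UMIs in 16 of 22. It was at 2.01 CPM or less in the other gastrocnemius groups. In the plantaris 4 UMIs came from 1 of the 6 Myh7 nuclei (185 CPM), and 9 Myh2 nuclei had 1 UMI each (4.60 CPM). Of the 22 gastrocnemius Myh7 nuclei 21 lay in 1 small cluster, while the 6 plantaris ones were 3 in that cluster, 2 at the myotendinous junction and 1 in the Myh2 cluster.

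Beyond the slow isoforms, Myh7 nuclei of the gastrocnemius lay closer to Myh2 than to Myh4 nuclei in Lmod2 and Nrap. The log2 ratio of Myh7 over Myh2 nuclei was 0.06 (-0.66 to 0.71) for Lmod2 and -0.18 (-0.45 to 0.08) for Nrap, against 5.09 (4.37–5.75) and 1.22 (0.96–1.47) over Myh4 nuclei. Tmod1 had 1 UMI in these nuclei (14.9 CPM), with a log2 ratio of -3.56 (-8.88 to -1.05) over Myh2 nuclei. All Myh7 values rest on 22 nuclei of 67017 UMIs.

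Counted over the members, 18 of 32 were compared between Myh2 and Myh4 nuclei of the gastrocnemius. Of these, 4 were 2-fold or more higher in Myh2 nuclei (Lmod2, Tpm2, Lmod3 and Nrap), where 11.3% of all 6263 compared genes were. The 7 that were 2-fold or more lower were Mylk4, Tpm1, Mylk2, Mylpf, Myl1, Tmod4 and Acta1, against 12.6% of all compared genes. The median log2 ratio of the 18 compared members was -0.71, and that of all compared genes 0.04. In the plantaris 20 were compared: 3 were higher (Myl2, Lmod2 and Lmod3) and 7 lower (Mylk4, Lmod1, Tpm1, Myl6, Mylpf, Mylk2 and Tnnt3), against 7.54% and 11.8% of 10055 compared genes, with medians of -0.34 and -0.10. Of the lower ones, all in the gastrocnemius except Myl1, and all in the plantaris except Mylk2 and Tnnt3, had Myh2 levels in CPM below those of the other cell types. The plantaris call for Lmod1, at -2.59 (-4.22 to -1.35), rests on 5 UMIs in Myh2 nuclei. With free RNA subtracted it is lost, as no Myh2 UMI remains and no ratio can be given. The level subtracted includes the mural nuclei's own Lmod1.

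The direction of each member in the 2 muscles is drawn in the plot of Myh2 over Myh4 ratios. Points near the diagonal, such as Mylk4, Tpm1 and Lmod3, had like ratios in both libraries, while Lmod2, Myl1 and Acta1 lay away from it.

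**Figure D3:**
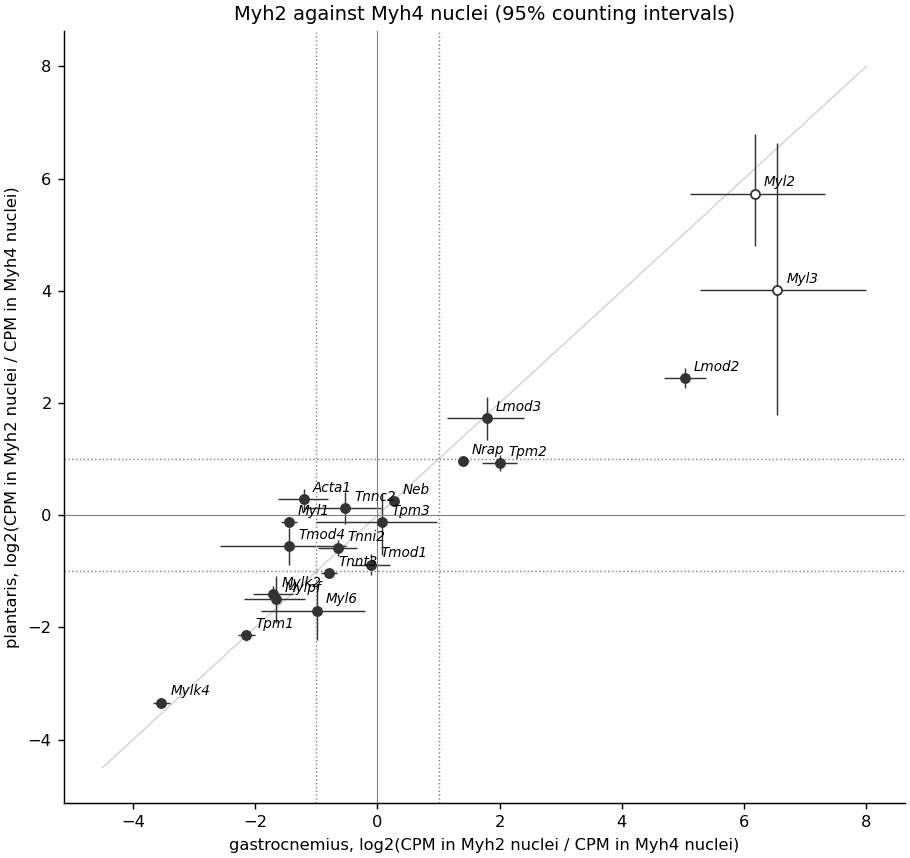
Log2 ratio of Myh2 over Myh4 nuclei in the gastrocnemius (horizontal) and plantaris (vertical), one point per gene with exact 95% intervals; open points (Myl2, Myl3) had too few UMIs to be compared in at least 1 library. Dotted lines mark 2-fold and the diagonal equal ratios; Lmod2 lies at 5.03 and 2.44 and Mylk4 at -3.54 and -3.34.

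Myh1 nuclei were compared with Myh4 nuclei in the same way. In the gastrocnemius 4 of 18 compared members were higher in Myh1 nuclei (Lmod2, Tpm2, Lmod3 and Nrap) and 4 lower (Mylpf, Tpm1, Mylk4 and Mylk2), against 7.22% and 11.7% of 5624 compared genes, with medians of -0.48 for members and -0.05 for all. In the plantaris 2 of 19 were higher (Lmod2 and Lmod3) and 3 lower (Mylk4, Tpm1 and Mylk2), against 4.93% and 8.14% of 10846, with medians of -0.34 and -0.09. The Mylk4 log2 ratio was -1.30 (-1.37 to -1.23) and -1.66 (-1.70 to -1.62), smaller than for Myh2 nuclei in both libraries. That of Mylk2 in the plantaris, -1.06, is -0.97 with median-ratio scaling. Both sets of ratios share the same Myh4 nuclei and are given side by side without a comparison of the sets.

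Levels were also set beside the share of Myh2 in each nucleus. Nuclei with 10 or more Myh UMIs were sorted by the Myh2 share of their Myh1, Myh2 and Myh4 UMIs into 5 bins, at 0%, up to 20%, 20 to 50%, 50 to 80% and 80% or more. They held 3192, 106, 19, 44 and 69 nuclei in the gastrocnemius and 3204, 267, 85, 236 and 175 in the plantaris. Plantaris Lmod2 ran at 51.1, 69.7, 165, 211 and 209 CPM over these bins, and Nrap at 880, 911, 1431, 1637 and 1596 CPM. Mylk4 ran at 4604, 4270, 1893, 584 and 317 CPM and Tpm1 at 1735, 1621, 740, 455 and 393 CPM. For all 4 genes, nuclei with up to 20% Myh2 lay nearer to those with none than to the 20 to 50% bin. They were not always the same as those with none. The Lmod2 intervals of these bins did not overlap, nor did those of gastrocnemius Mylk4 (10664–10784 and 9741–10370). The 20 to 50% bin lay between the outer ones for all 4 genes. The first bin pools Myh4 and Myh1 nuclei. Free Myh4 RNA, at 1459 and 1173 CPM in the other cell types, was not taken off, so a nucleus with only Myh2 transcripts of its own can fall below 80%, and the middle bins are not read as mixed expression.

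In the gastrocnemius Lmod2 ran at 11.9, 22.9, 150, 282 and 329 CPM and Mylk4 at 10724, 10052, 3344, 1240 and 823 CPM. The middle value there rests on 19 nuclei, and without it the first 2 bins remain apart from the last 2. Plantaris Myl2 was at 0.366 and 0 CPM in the first 2 bins and at 20.9, 37.9 and 37.5 CPM in the others. Plantaris Tpm2 was at 152, 168, 204, 259 and 296 CPM. The bins are shown in the plot of levels by Myh2 share.

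**Figure D4:**
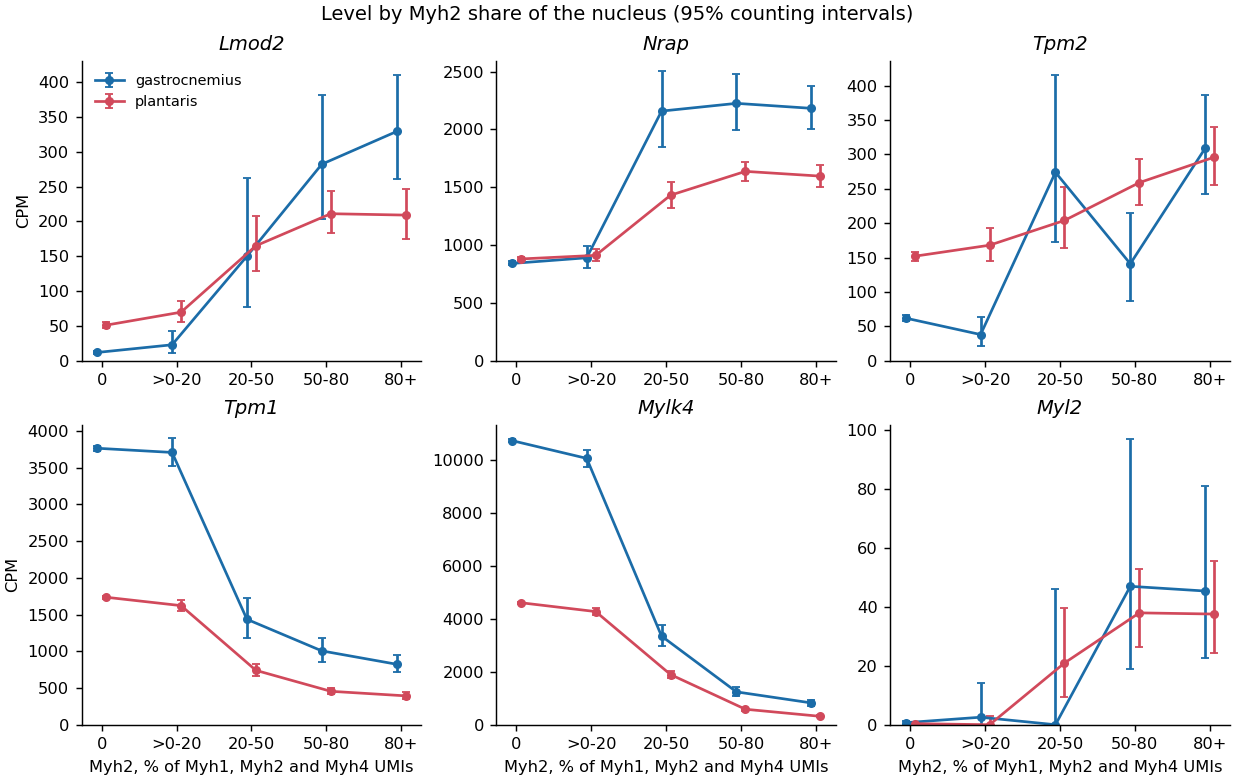
CPM (vertical, linear from 0) of Lmod2, Nrap, Tpm2, Tpm1, Mylk4 and Myl2 in nuclei with 10 or more Myh UMIs, by the Myh2 share of Myh1, Myh2 and Myh4 UMIs (horizontal), for both libraries with exact 95% intervals. Lmod2 and Nrap are higher and Mylk4 and Tpm1 lower from the 20 to 50% bin on; that bin holds 19 gastrocnemius nuclei.

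Between muscles, 9 of 24 compared members differed 2-fold or more in Myh4 nuclei. Higher in the plantaris were Lmod1, Lmod2 and Tpm2, against 8.91% of 12646 compared genes, and lower were Actc1, Myl1, Mylpf, Acta1, Mylk4 and Tpm1, against 2.15%. The median log2 ratio of plantaris over gastrocnemius was -0.08 for the members and 0.20 for all compared genes. Myl1 gave -1.93 (-1.96 to -1.89), Mylpf -1.67 (-1.77 to -1.58), Mylk4 -1.12 (-1.14 to -1.11) and Tpm1 -1.04 (-1.06 to -1.02). Other cell types were also lower in the plantaris for these 4 genes: Myl1 from 759 to 213 CPM, Mylpf from 87.3 to 35.9, Mylk4 from 2809 to 1309 and Tpm1 from 1147 to 612. With free RNA subtracted all 4 stayed past 2-fold. Myl1 and Mylpf were also among the 10 leading genes of the cluster that held the most gastrocnemius Myh4 nuclei, and the part of that in the result was not tested.

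Lmod2 gave 1.98 (1.71–2.26) and Tpm2 1.29 (1.18–1.41) between the muscles in Myh4 nuclei, and both were also higher in the other cell types of the plantaris, at 21.5 against 3.23 CPM and 76.0 against 25.2 CPM. Lmod1 gave 4.06 (3.26–4.99). With free RNA subtracted it is 0.84, a value set by the limit of 3 counts, as no gastrocnemius UMI remains. The level subtracted includes the mural nuclei's own Lmod1. Acta1 gave -1.19 (-1.28 to -1.11), which is -0.98 with all nuclei kept. The Actc1 ratio was -4.46 (-5.94 to -3.30). Tnnt3 gave 0.18 (0.15–0.20) and Mylk2 0.19, which are -0.03 and -0.01 with median-ratio scaling, so neither has a direction between the muscles.

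In Myh1 nuclei 1 of 17 compared members differed, Mylk4 at -1.48 (-1.56 to -1.40), and 0 were higher in the plantaris, against 10.5% higher and 2.65% lower of 5960 compared genes, with medians of -0.24 and 0.08. In Myh2 nuclei 4 of 20 differed: Tmod4 was higher, and Myl3, Mylpf and Tpm1 lower, against 7.97% and 4.38% of 6697, with medians of -0.38 and -0.01. Of these, Tmod4 gave 1.30 (0.31–2.48), which is 0.84 when 80% of the Myh UMIs come from 1 gene. Tpm1 gave -1.03 (-1.20 to -0.85), which is -0.96 with all nuclei and -0.98 with 10 or more Myh UMIs. Mylpf and Tpm1 in Myh2 nuclei lay below the other cell types in CPM in both libraries, and those were lower in the plantaris as well. Lmod2, higher by 1.98 in plantaris Myh4 nuclei, was lower in plantaris than gastrocnemius Myh2 nuclei, at -0.61 (-0.88 to -0.33). The 3 sets are drawn in the panels of plantaris over gastrocnemius ratios.

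**Figure D5:**
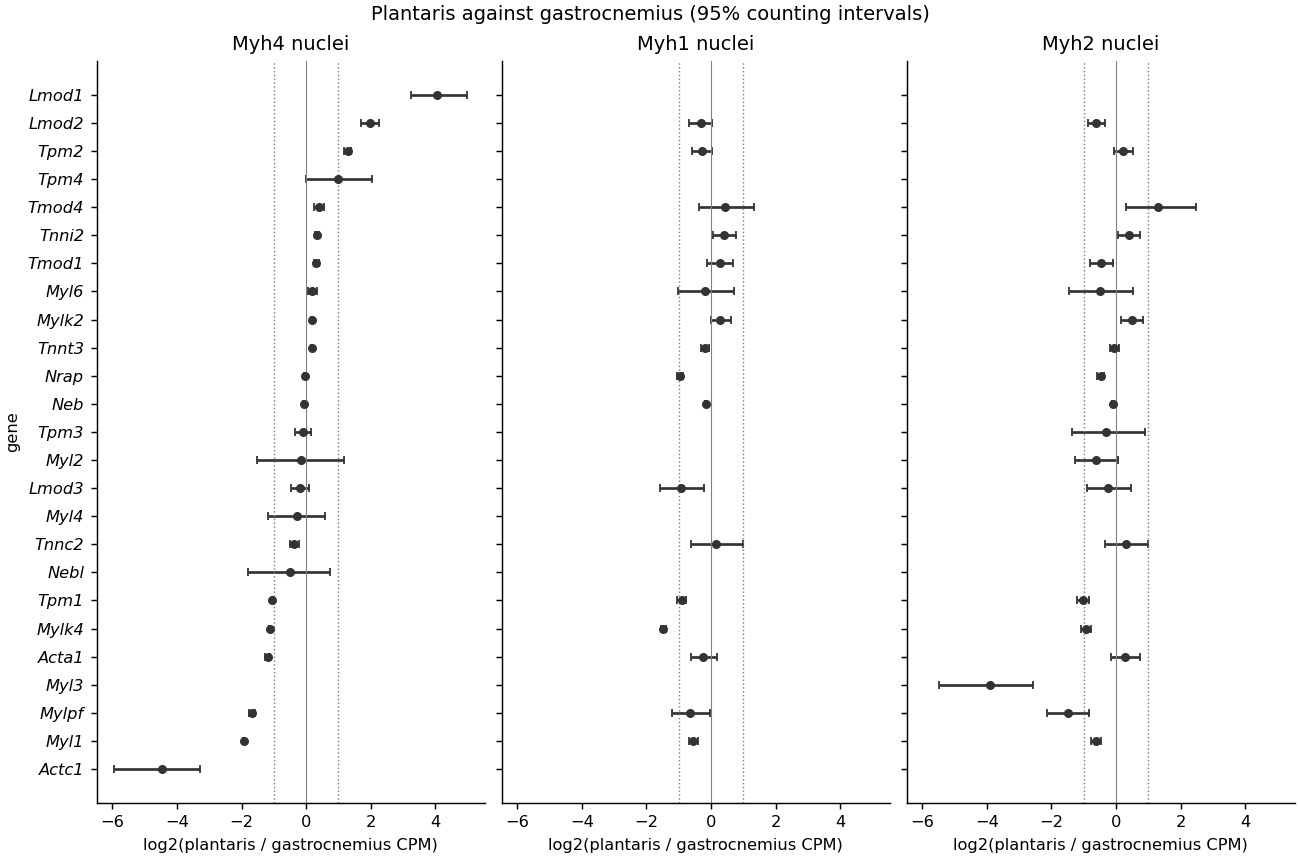
Log2 ratio of plantaris over gastrocnemius for each compared member in Myh4, Myh1 and Myh2 nuclei, with exact 95% intervals. Myl1, Mylpf, Mylk4 and Tpm1 lie left of 0 in all 3 panels, and Lmod2 lies at 1.98 in Myh4 and at -0.61 in Myh2 nuclei.

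Other genes of the thin filament and its partners were counted from 2 further lists. Of 26 genes of thin filament assembly and Z-disc attachment, 20 were compared between Myh2 and Myh4 nuclei of the gastrocnemius, with 2 higher and 3 lower past 2-fold, against 11.3% and 12.6% of all compared genes, and a median of -0.22, against 0.04 for all genes. In the plantaris 4 of 24 were higher and 2 lower, against 7.54% and 11.8%, with a median of -0.25, against -0.10. The Z-disc crosslinker Actn2 was higher in Myh2 nuclei, with log2 ratios of 3.87 and 2.71 in the gastrocnemius and plantaris, and its fast-fibre counterpart Actn3 lower, at -3.44 and -3.79. The actin monomer binder Pfn1 was lower, at -1.51 and -1.94. Klhl41, a nebulin-binding adaptor, gave 1.46 and 0.79, the actin-severing cofilin gene Cfl2 0.90 and 1.14, and the actin-regulated cofactor Mrtfb -1.13 and -0.75. Cap2 (0.17 and 0.29) and Xirp2 (-0.86 and -0.87) did not pass 2-fold.

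Of 16 other contractile partner genes 12 were compared, with 3 higher and 8 lower in gastrocnemius Myh2 nuclei, and 4 and 7 in the plantaris, against the same shares of all compared genes. The medians were -1.52 and -1.14, against 0.04 and -0.10. Myoz2, the slow calsarcin, gave 7.85 and 6.2, the slow calcium pump gene Atp2a2 2.64 and 2.60, and the slow myosin-binding protein gene Mybpc1 3.44 and 1.11. Lower were the fast counterpart Mybpc2 (-3.89 and -3.77), the calcium buffer Pvalb (-4.24 and -3.64), the fast calsarcin Myoz1 (-2.26 and -2.49) and the calcium store protein Casq1 (-1.45 and -1.35). In the same Myh2 nuclei Tnnt1, Tnni1 and Tnnc1 did not pass 4.09 CPM, and Tpm3 was below the other cell types.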

How the data were processed

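Nuclei were profiled as droplet libraries, 1 per muscle, and the deposited table holds raw UMI counts per gene and nucleus, made by the authors with Cell Ranger 6.0.1 on mm10, per the submitters' processing notes. The annotation, the treatment of intronic reads and the rule for calling nuclei are not stated there or in the labels. A second deposited file names the library of each barcode. Each nucleus held at least 500 UMIs. Nuclei with at least 200 genes and at most 5% mitochondrial UMIs were clustered with scanpy 1.11.5 (2000 variable genes, 30 components, 15 neighbours, Leiden resolution 1, seed 0; igraph 0.11.9, leidenalg 0.10.2, Python 3.11.15). Clusters were named by resemblance from at least 3 passing markers, with marker thresholds set while naming. The doublet caller marked 2 and 1 nuclei (0.0271% and 0.0109%), under 0.5%, so it did not work. The marked nuclei were left out, and undetected doublets remain.

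UMIs were summed per library and group. Intervals (scipy 1.17.1) are exact Poisson for CPM, Clopper-Pearson for shares and conditional binomial for ratios, at 95%, and cover counting error only. The limit given for 0 counts is 3 counts. The calculation was tested on simulated data. With 1 library per muscle no p-value was computed. All 33 members are accounted for, with counts only for the rarest. From the 2 other lists at most 4 genes per direction are named, by the smaller of the 2 library ratios. Members and lists were chosen with earlier results of these data known. Alternatives varied the nuclei kept, depth, free RNA, scaling, length and minimum counts. Promoters came from RefSeq and gene positions from GENCODE M21.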

Additional observations from a re-analysis of the deposited data

Results flagged for a closer look

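For 5 genes the same contrast gave opposite directions in 2 groups, with intervals on opposite sides of 0. None of these differences was tested, since each group is 1 library. Tnnt3 was higher in plantaris than gastrocnemius Myh4 nuclei, at a log2 ratio of 0.18, and lower in Myh1 nuclei, at -0.18. The former is -0.03 with median-ratio scaling. Myl1 was lower in Myh1 than Myh4 nuclei of the gastrocnemius, at -0.94, and higher in the plantaris, at 0.44. Acta1 gave -1.20 and 0.28 for Myh2 over Myh4 nuclei in the gastrocnemius and plantaris, and -0.61 and 0.35 for Myh1 over Myh4 nuclei. With free RNA subtracted the Myh1 ratios are -2.77 and 5.62. The plantaris one is set by the limit of 3 counts, as no Acta1 UMI remains in its Myh4 nuclei. The Acta1 level in other cell types was above all of these groups in CPM. Lmod2 was higher in plantaris Myh4 nuclei, at 1.98, and lower in plantaris Myh2 nuclei, at -0.61. Tmod1 gave 0.32 in Myh4 and -0.46 in Myh2 nuclei for the same contrast.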

How the results depend on the processing

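No paired analysis was possible because neither muscle is tied by label to particular mice. Leaving out a replicate was not possible with 1 library per group. Of 1725 log2 ratios of single members under alternatives, 1524 moved by less than the counting error and 201 by more. Of those past 2-fold, 0 changed sign. Where a group was left with no UMI and its limit lay above the other group, the ratio was set to 0. Such a ratio, as for plantaris Lmod1 with free RNA subtracted, could not count as a change of sign. Of 420 pair shares 350 moved by less than the counting error. The number of the 6 pairs with a slow share of 50% or more was 1 in plantaris Myh2 nuclei and 0 per kb of gene length or after thinning to 1000 UMIs. In gastrocnemius Myh2 nuclei it was 0, and 1 after thinning or with free RNA subtracted. Members past 2-fold between muscles in Myh1 nuclei were 1, against 4 with all nuclei or with 80% of Myh UMIs from 1 gene, and 3 without junction clusters, with free RNA subtracted, with median-ratio scaling or with no minimum count. In Myh2 nuclei they were 4, against 2 with 10 or more Myh UMIs, 8 with no minimum and 1 with at least 100 UMIs. For Myh1 against Myh4 nuclei of the plantaris they were 5, against 8 with free RNA subtracted and 10 with no minimum. With no minimum the count was 18 in place of 11 for Myh2 against Myh4 nuclei of the gastrocnemius, and 15 in place of 9 between muscles in Myh4 nuclei. The cause of these moves was not tested, except that no minimum admits genes with few UMIs. Leaving out nuclei with a Myh7 UMI was chosen after seeing the data. It left the Myl2 shares of Myh2 nuclei at 43.8% and 59.0%, and no Myl2-positive Myh2 nucleus held such a UMI. The share in gastrocnemius Myh4 nuclei, which enters the odds of Myh2 against Myh4 nuclei, went from 0.340% to 0.124%. Depth limits the Myh7 nuclei most, at 67017 and 21567 UMIs in all.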
